A study of Mus musculus with 16 samples.

Results

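Matrix metalloproteinases (MMPs), the ADAMTS proteases and their tissue inhibitors (TIMPs) were followed in the ventricles of neonatal mice after myocardial infarction, with and without the gene Chrna7. Members were chosen by name: all genes of the count table with a symbol that begins with Mmp, Timp or Adamts, leaving out Mmp8, Mmp9 and Mmp12. This gave 48 of 22468 genes, namely 20 Mmp, 4 Timp, 19 Adamts and 5 Adamtsl genes. The low-count filter kept 36 of them for testing (10 Mmp, 4 Timp, 17 Adamts and 5 Adamtsl genes), and 12 had too few reads to be tested.

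Polyadenylated RNA of whole ventricles, taken from above and below the ligature, was sequenced in 4 groups of 4 samples. The groups were wild type after sham surgery (WT-SH), wild type after infarction (WT-MI), Chrna7 knockout after sham surgery (KO-SH) and Chrna7 knockout after infarction (KO-MI). Chrna7 encodes the alpha 7 nicotinic acetylcholine receptor, and the knockout is a constitutive one from the Jackson Laboratory, not limited to 1 cell type. The labels give neither the age in days, the sex and the litter, nor whether the samples of a group came from separate animals, so p-values measure only the spread between these samples. Infarction was made by ligation, and the time from surgery to harvest is not given in the sources used here.

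MMPs and ADAMTS proteases are zinc enzymes that cut the extracellular matrix. MMPs as a family cleave collagens, gelatin, laminins and many other proteins, whereas ADAMTS proteases remove the ends of procollagens, cut large proteoglycans such as versican, or act on fibrillin microfibrils. The ADAMTS-like proteins share the accessory domains of the ADAMTS proteases and lack the catalytic domain. TIMPs block the active site, and in the heart the balance of MMPs and TIMPs is a standard subject of work on scar formation and dilation after infarction. Many inducible MMP genes are textbook targets of AP-1, the dimer of Fos and Jun proteins that binds the sequence TGANTCA.

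Gene counts ranged from 10711442 to 17223580 per library, and 3 counts correspond to 0.174 to 0.280 CPM (counts scaled to a common library total, which is further adjusted with TMM factors for the levels given here). The 8 cardiomyocyte markers summed to 74300 to 84700 CPM per library in WT-SH and 69400 to 74800 in WT-MI. Their sum was 66700 to 69300 CPM in KO-SH and 45600 to 71800 in KO-MI. Chrna7 had 0 to 4 reads in all libraries, so its level checks no label. The KO-SH libraries stood apart on the first principal component (25.5% of the variance), with scores of 27.9 to 31.6, against 1 at most in the other groups. On the fourth component (8.94%), WT-SH replicate 2, WT-MI replicate 2 and KO-MI replicate 4 stood apart, with scores of 18.6, 19.2 and 20.9. The summed level of 8 lung epithelium markers was 3.19 CPM in this WT-SH library and 3.88 CPM in this WT-MI library, the lowest of their groups, and 338 CPM in KO-MI replicate 4, the highest of all. The counts of called members are given with and without these 3 libraries. KO-MI replicate 4 also differed from its own group over all genes. The chi-square per degree of freedom between the counts of 2 libraries of a group was 57.78 to 69.96 for its pairs. For the other KO-MI pairs it was 5.05 to 10.62. It was lowest in KO-SH, at 3.87 to 5.99, against 6.29 to 19.58 in WT-MI and 7.42 to 21.74 in WT-SH. The fit shares its estimate of the spread among the groups, although KO-SH varied least by this measure.

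Promoters of 34 members were found in the RefSeq table of 300-base windows (250 bases before to 50 after the start site, build GRCm38.p6). Both strands were searched for the AP-1 motif TGANTCA, the TATA box TATAAA and the GC box GGGCGG. The AP-1 motif was present in 7.81% of all 32851 promoters and in 7 members. All 7 lie in a run of Mmp genes on chromosome 9, where 8 members follow each other with only Mmp12 and Mmp8 among them, and none of the other 26 members with a promoter held the motif. The stretches around it are shown because all 7 were close to silent in the ventricles; they are 7 of the 12 members with 10 reads or fewer in each library, and the other 5 had no AP-1 match. Capitals mark TGANTCA, and sequences run 5′ to 3′ along the gene.
Mmp13 (chr9:7272459-7272505, + strand): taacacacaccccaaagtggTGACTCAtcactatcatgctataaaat
Mmp1b (chr9:7388093-7388139, - strand): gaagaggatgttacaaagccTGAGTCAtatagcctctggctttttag
Mmp3 (chr9:7445756-7445802, + strand): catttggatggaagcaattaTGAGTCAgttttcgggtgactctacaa
Mmp1a (chr9:7464048-7464094, + strand): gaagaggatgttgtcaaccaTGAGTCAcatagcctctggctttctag
Mmp10 (chr9:7502259-7502305, + strand): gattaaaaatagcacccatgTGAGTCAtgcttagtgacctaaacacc
Mmp20 (chr9:7628116-7628162, + strand): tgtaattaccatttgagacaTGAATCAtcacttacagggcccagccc
Mmp7 (chr9:7692007-7692053, + strand): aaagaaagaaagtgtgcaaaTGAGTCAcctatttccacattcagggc
The eighth member of the run, Mmp27, had no match in its window. The motif began 35 (Mmp13) to 95 bases (Mmp20) before the start site, and each of these 7 promoters also held a TATA box, which 13.6% of all promoters and 10 members have. The GC box showed the opposite arrangement, in 22 members outside the run and in none within it, against 35.7% of all promoters. The GC content of the windows was 37.7 to 52% in the run and 53.3 to 80% elsewhere.

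Adamts1, the member with the smallest adjusted p in any comparison, has a TATA box in a GC-rich window (64.7% GC), 32 bases before the start site. The 120 bases before its start site are shown with TATAAA in capitals.
Adamts1 (chr16:85803114-85803233, - strand): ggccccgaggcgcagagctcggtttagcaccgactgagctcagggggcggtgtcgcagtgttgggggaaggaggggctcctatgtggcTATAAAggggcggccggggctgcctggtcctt
Timp1 had no TGANTCA in its window but was the only member with TGAGTAA, a near match described as an AP-1 site in this gene and present in 2.68% of all promoters. It began 26 bases after the annotated start site and is shown in capitals.
Timp1 (chrX:20870182-20870208, + strand): ggtgggtggaTGAGTAAtgcgtccagg
A match describes the letters of a window and does not show that a factor binds there.

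**Figure D1:**
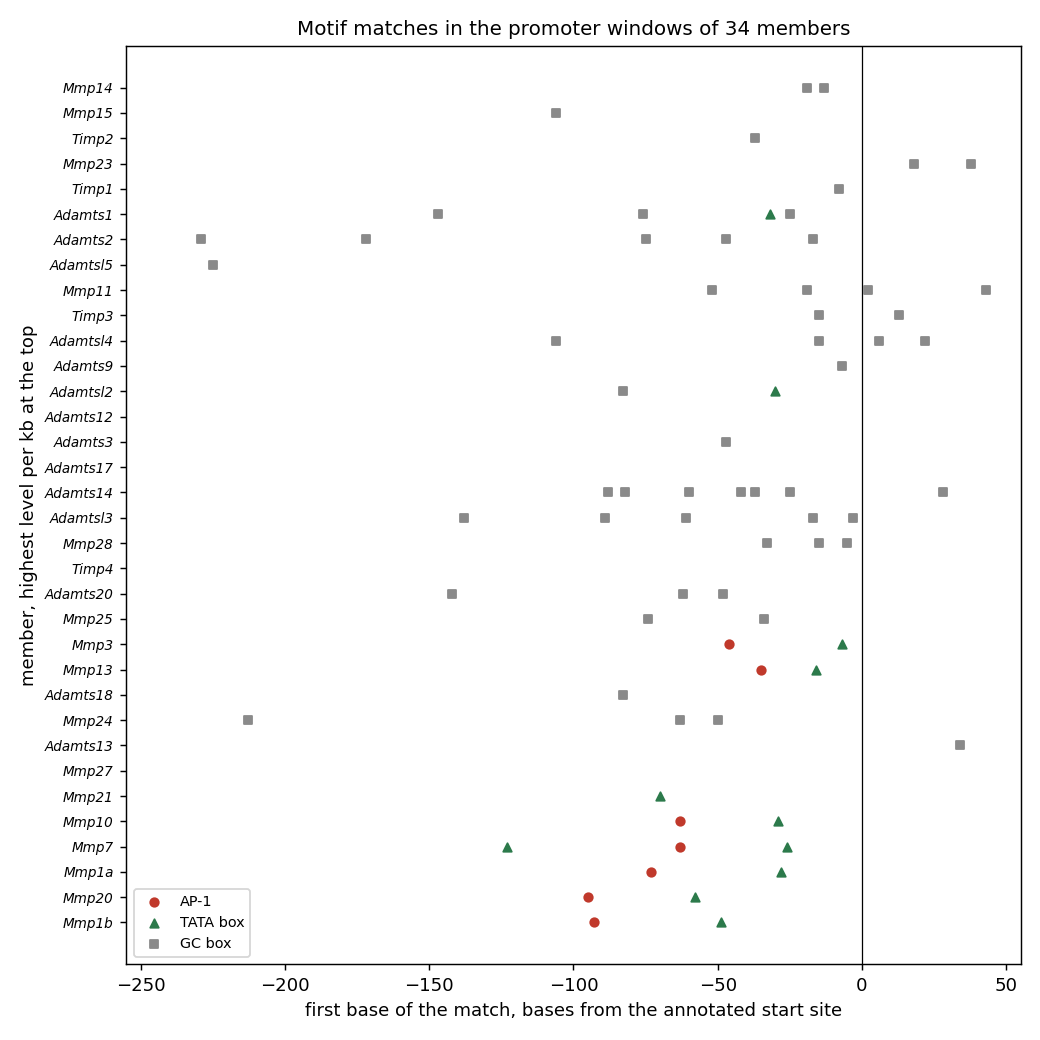
Positions of AP-1, TATA box and GC box matches in the promoter windows of 34 members, in bases from the annotated start site (x axis), with members ordered by their level per kb (y axis, highest at the top; the first window for genes with several). AP-1 matches (red circles) are seen in 7 low-ranked Mmp genes with TATA boxes (green triangles), and GC boxes (grey squares) in 22 other members.

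The run on chromosome 9 was close to silent. Its 8 members had 10 reads or fewer in each library, none reached the filter, and Mmp1a, Mmp1b and Mmp20 had no read in any of the 16 libraries. The stromelysin Mmp3 had the highest count of them, 10 reads, and 0 to 0.822 CPM in WT-MI and 0.205 to 0.491 CPM in KO-MI. Mmp13, the main collagenase of rodents, had at most 4 reads, and Mmp10 and Mmp27 at most 2. Mmp7 had 1 read in all. The other members not tested were Mmp24, Mmp21 and Adamts18 with at most 3 reads, and Adamts13, which cuts von Willebrand factor, with at most 2. A response of the collagenases Mmp13, Mmp1a and Mmp1b to infarction was therefore not detectable at this depth.

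The transcripts present were dominated by a few genes. Per kb of the longest annotated transcript, and averaged over the 16 libraries, gelatinase A (Mmp2) stood at 71 ± 8.19 CPM per kb (SD, n = 16), Mmp14 at 57.1 ± 6.68 and Mmp15 at 45.5 ± 5.46. Mmp14 and Mmp15 are membrane-type MMPs, and Mmp14 activates the Mmp2 proenzyme on the cell surface in a complex with Timp2. Timp2 followed at 31 ± 3.07, Adamts10 at 24.4 ± 3.32, Mmp23 at 22.2 ± 3.39, Timp1 at 18.9 ± 6.52 and Adamts1 at 14.4 ± 4.7 CPM per kb. From Mmp2 to Adamts10, neighbours in this order differed by more than the SD of either, while neighbours from Adamts10 to Adamts1 did not.

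**Figure D2:**
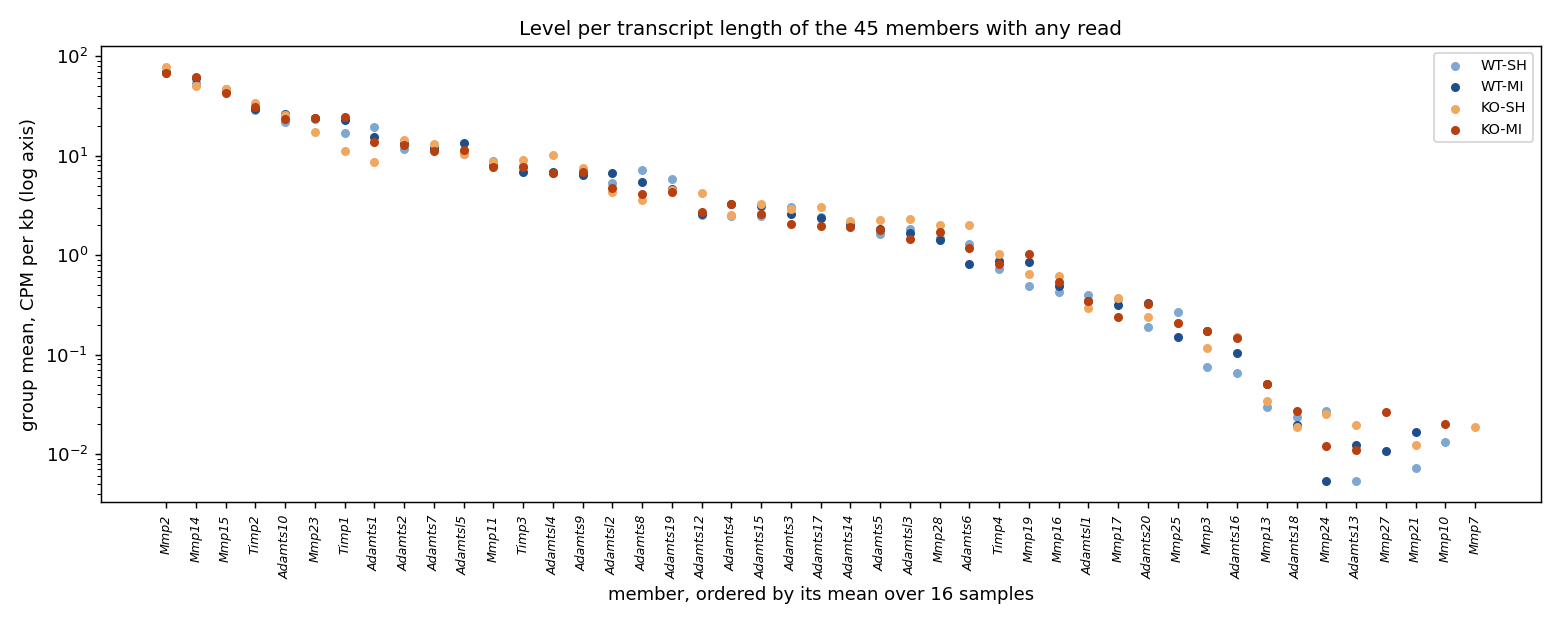
Group means in CPM per kb of transcript (log axis) for the 45 members with any read, ordered by their mean over 16 samples; each dot is the mean of 4 libraries, and means of 0 cannot be drawn. Levels span Mmp2 at 71 to members with a few reads in all, and the groups lie furthest apart for Timp1 and Adamts1 among the 8 highest.

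The Mmp genes summed to 204 ± 4.92 CPM per kb in WT-SH, 211 ± 8.02 in WT-MI, 207 ± 11.5 in KO-SH and 208 ± 31.7 in KO-MI (SD, n = 4 each). The Adamts genes summed to 103 ± 11.3, 103 ± 16, 101 ± 2.54 and 94.3 ± 6.86, in the same order. The Timp genes summed to 54.7 ± 4.57, 60.4 ± 6.04, 55.5 ± 1.31 and 64 ± 5.28, and the Adamtsl genes to 24.8 ± 1.59, 28.9 ± 2.08, 27.5 ± 1.6 and 24.5 ± 5.47. The groups overlapped in these sums with 2 exceptions. The Timp sum was 54.3 to 56.8 in KO-SH and 57.9 to 69.5 in KO-MI, and the Adamtsl sum was 22.9 to 26.8 in WT-SH and 27.1 to 31.5 in WT-MI. The sums were not tested.

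After infarction in knockout mice, 11 of the 36 tested members changed at an adjusted p under 0.05 (edgeR quasi-likelihood test, Benjamini-Hochberg over 13412 genes), or 30.6%, beside 16.6% of all genes tested. The inhibitor Timp1, the proteoglycanase Adamts1 and the proteases Mmp19, Mmp23 and Mmp14 rose. The procollagen protease Adamts3, the proteases Adamts6, Adamts12 and Adamts17 and the ADAMTS-like proteins Adamtsl3 and Adamtsl4 fell. The 5 that rose are 5 of 36 beside 8.54% of all genes called higher, and the 6 that fell beside 8.02% called lower. The median log2 change was -0.16 over the tested members and 0.01 over all genes tested. The count of 11 fell to 7 without KO-SH replicate 1, KO-SH replicate 2 or KO-MI replicate 2, beside 10.3, 10.2 and 9.1% of all genes, and to 6 without KO-SH replicate 4, beside 9.64%. Without the 3 libraries it was 13, with Adamts4, Adamts5 and Timp3 added and Adamtsl4 lost, beside 29.6% of all genes.

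After sham surgery, 7 members (19.4%) differed between knockout and wild type, beside 15.3% of all genes tested. Adamts12, Adamts5 and Adamts2 were higher in knockouts (7.6% of all genes were called higher), and Adamts1, Adamts8, Timp1 and Mmp23 were lower (7.74% were called lower). This share is near that of all genes. Corrected for transcript length and GC content, 6 members were higher and 2 lower in place of 3 and 4. The count of 7 fell to 3 without WT-SH replicate 2 and to 4 without KO-SH replicate 1, 2 or 3, beside 9.77 to 10.2% of all genes in these 4 fits. Without the 3 libraries it was 10, with Adamts6, Adamtsl4, Mmp2, Mmp28 and Timp4 added (all higher in KO-SH) and Adamts8 and Timp1 lost, beside 21.7%. The median log2 difference was 0.16 over the members and -0.01 over all genes.

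In wild type, no member changed after infarction in edgeR or DESeq2, beside 2.25% of all genes tested; 10 members had an unadjusted p under 0.05 in edgeR, beside 15% of all genes (2007 of 13412), and the smallest adjusted p was 0.0682 (Mmp19). Without the 3 libraries apart on the fourth component, 4 members were called (Adamts10, Adamts4 and Mmp19 higher, Adamts6 lower), beside 4.17% of all genes; 1 was called without WT-SH replicate 2 and 2 without WT-MI replicate 2 or 3. After infarction, no member differed between knockout and wild type in either tool, beside 0.0149% of all genes, nor without the 3 libraries, beside 0.0822%; 3 had an unadjusted p under 0.05, beside 4.76% of all genes (638), and the smallest adjusted p was 0.873 (Adamtsl2). The interaction, the response in knockout minus that in wild type, was called for Adamts1 alone, or 2.78% of members beside 2.74% of all genes, and 12 members had an unadjusted p under 0.05, beside 18.1% of all genes (2428). It was called for no member without KO-SH replicate 1, KO-SH replicate 2 or KO-MI replicate 2, for 2 without WT-SH replicate 1 or KO-MI replicate 4, and for 8 without WT-MI replicate 2, beside 6.03% of all genes. It was called for 8 as well without the 3 libraries, beside 10.7% of all genes: Adamts1 and Mmp23 had a positive interaction, and Adamts2, Adamts5, Adamts10, Adamts12, Adamts17 and Adamtsl3 a negative one. The KO-SH group enters 3 of these comparisons and the WT-SH group enters 3, so they are not independent of each other.

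**Figure D3:**
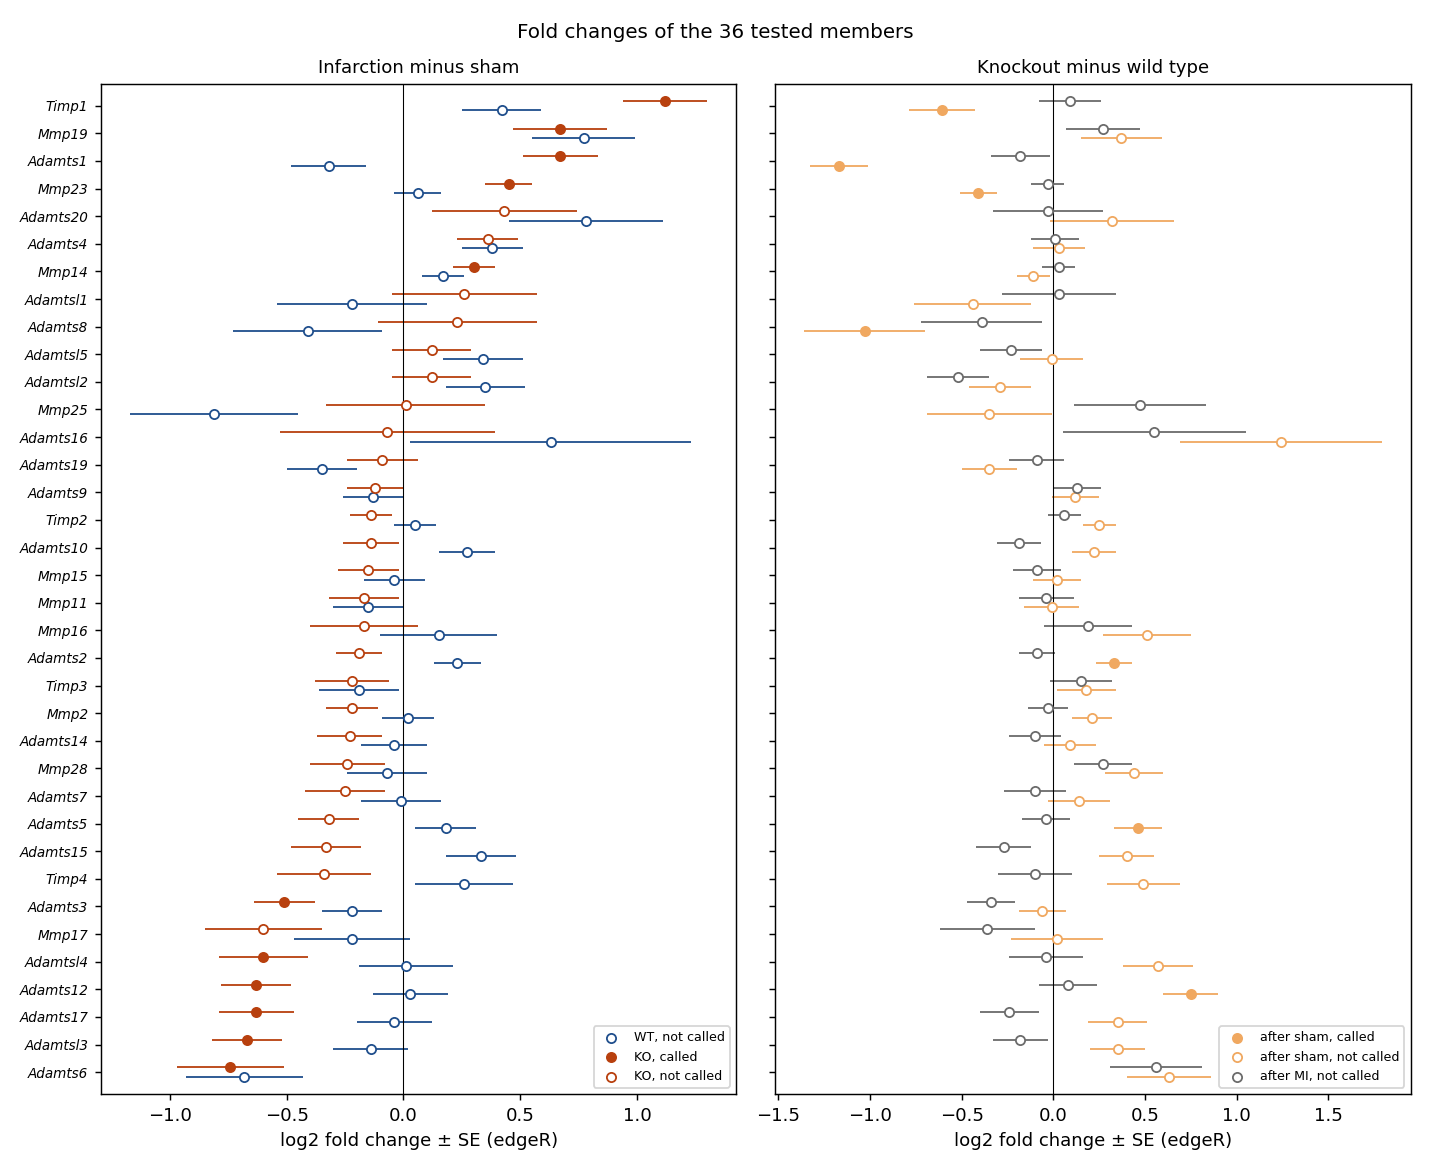
Log2 fold change ± SE (edgeR, 4 samples per group) of the 36 tested members for infarction minus sham in wild type and knockout (left) and for knockout minus wild type after sham and after infarction (right); filled dots are called at an adjusted p under 0.05. Filled dots appear only for the knockout response (Timp1 at 1.12 to Adamts6 at -0.74) and for the sham comparison (Adamts1 at -1.17 to Adamts12 at 0.75).

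In the fit of all 16 libraries, the inducible Timp1 (ENSMUSG00000001131, chromosome X) was the one inhibitor called. It stood at 15.9, 15.2, 14.6 and 14.7 CPM in WT-SH (replicates 1 to 4 throughout), 26.7, 24.9, 12.5 and 16.1 in WT-MI, 9.04, 10.4, 10.8 and 9.38 in KO-SH, and 18.5, 21.9, 24.9 and 20.7 in KO-MI. KO-SH lay below every other library, and the WT-MI libraries split into a high and a low pair that straddles WT-SH. Timp1 rose in knockouts by a log2 change of 1.12 ± 0.18 (SE; adjusted p = 0.000581, edgeR), from a mean of 9.92 ± 0.848 to 21.5 ± 2.68 CPM (SD, n = 4), and was lower in KO-SH than in WT-SH by 0.61 ± 0.18 on the log2 scale (adjusted p = 0.0288). The log2 change in wild type was 0.42 ± 0.17 (adjusted p = 0.25) and was called without WT-MI replicate 3 (0.58, adjusted p = 0.0359), and the interaction of 0.70 ± 0.25 did not pass (adjusted p = 0.136). The knockout response kept its call without each library in turn, whereas the sham difference, -0.65 to -0.56 over these fits, lost it without WT-SH replicate 1, 2 or 3 or KO-SH replicate 1, 2 or 4 (adjusted p up to 0.0802), without the 3 libraries (0.0545) and when length and GC content of the transcripts were corrected for (-0.40, 0.0979).

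The other inhibitors were called in some of the alternatives only. Timp2, the partner of Mmp14 in Mmp2 activation, was at 109, 86.5, 112 and 121 CPM in WT-SH, 115, 96.4, 118 and 113 in WT-MI, 125, 128, 130 and 125 in KO-SH and 113, 109, 123 and 116 in KO-MI. Its KO-SH libraries were all above those of WT-SH (log2 0.25 ± 0.09, adjusted p = 0.0689). This difference was called by DESeq2, with the replicate block, with the correction for length and GC content, in a fit of the groups compared alone and without WT-SH replicate 4 (log2 0.25 to 0.31, adjusted p 0.0391 to 0.044). Timp3, the matrix-bound inhibitor that also blocks ADAMTS proteases, was at 35.5, 32.6, 37.9 and 44.3 CPM in WT-SH, 29.5, 30.2, 34.8 and 36.9 in WT-MI, 44.3, 42.1, 41.3 and 42.5 in KO-SH, and 26.4, 30.1, 34.2 and 55.4 in KO-MI, where replicate 4 was far above the rest. The adjusted p of Timp3 was 0.372 to 0.976 over the 5 comparisons. Without KO-MI replicate 4, Timp3 was lower in knockouts after infarction by 0.50 on the log2 scale (adjusted p = 0.00376), and without the 3 libraries by 0.49 (adjusted p = 0.000703), against 0.22 with all libraries (adjusted p = 0.372). Timp4, known for its expression in heart, was the lowest, at 2.92 to 5.06 CPM in WT-SH, 4.03 to 6.09 in WT-MI, 4.71 to 6.69 in KO-SH and 3.27 to 5.13 in KO-MI. Its sham difference of 0.49 (log2, adjusted p = 0.0986) was 0.64 without the 3 libraries (adjusted p = 0.0183).

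In these libraries the make-up of the Timp pool differed between sham groups, although the Timp1 sham call was lost in several alternatives. Timp1 made up 31.5 ± 3.27% of the summed Timp level per kb in WT-SH, 37 ± 9.58% in WT-MI, 20.2 ± 1.27% in KO-SH and 38.1 ± 2.9% in KO-MI (SD, n = 4). The KO-SH libraries (18.8 to 21.6%) did not overlap any other group. Timp2 was the main inhibitor transcript in all groups on average, from 48.7 ± 2.66% in KO-MI to 61.7 ± 0.477% in KO-SH. Shares were not tested, since they restate the levels above.

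**Figure D4:**
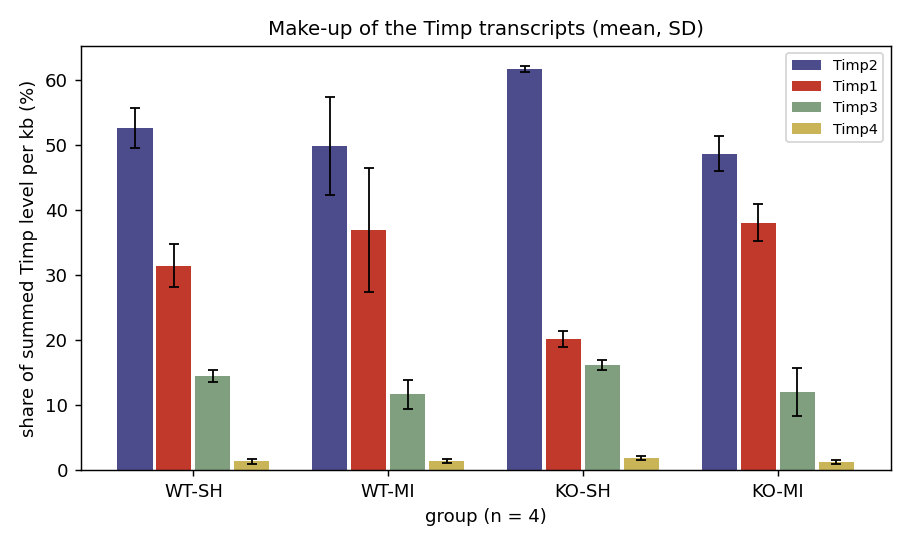
Mean share (bars) ± SD (n = 4) of each Timp gene in the summed Timp level per kb, in percent, by group. Timp1 is lowest in KO-SH at 20.2% and is 31.5 to 38.1% in the other groups, with the opposite order for Timp2.

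Mmp2, which degrades denatured collagen and basement membrane collagen, was at 204, 224, 199 and 213 CPM in WT-SH, 194, 218, 236 and 203 in WT-MI, 227, 266, 252 and 226 in KO-SH and 235, 206, 236 and 159 in KO-MI. The groups overlapped except for the 2 sham groups, and the adjusted p was 0.165 to 0.986 over the 5 comparisons. With the correction for length and GC content, Mmp2 was called lower in knockouts after infarction (log2 -0.30, adjusted p = 0.0154) and higher in KO-SH than in WT-SH (0.28, adjusted p = 0.0221), and the latter also without the 3 libraries (0.25, adjusted p = 0.0299). Its activator Mmp14 (ENSMUSG00000000957, chromosome 14) was at 188, 164, 176 and 176 CPM in WT-SH, 198, 184, 191 and 217 in WT-MI, 160, 160, 180 and 154 in KO-SH and 214, 212, 216 and 165 in KO-MI. The knockout groups overlapped only through KO-MI replicate 4. Mmp14 rose in knockouts by 0.30 ± 0.09 (log2 ± SE, adjusted p = 0.0274), and by 0.38 without that library. This call was lost without KO-SH replicate 1, 2 or 4 or KO-MI replicate 1, 2 or 3 (log2 0.27 at the lowest, adjusted p up to 0.0853).

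Mmp23 (ENSMUSG00000029061, chromosome 4), a membrane-anchored MMP without the hemopexin domain of most MMPs, was at 31.6, 31.5, 32.2 and 37.8 CPM in WT-SH, 34.9, 37, 30.9 and 36.1 in WT-MI, 26.4, 25.5, 24.1 and 24 in KO-SH and 29.8, 35.8, 38.9 and 32 in KO-MI. All KO-SH libraries were below all others. Mmp23 rose in knockouts by 0.45 ± 0.10 (log2 ± SE, adjusted p = 0.00458) and was lower in KO-SH than in WT-SH by 0.41 ± 0.10 on the log2 scale (adjusted p = 0.00775). Each call held without any 1 library, and each was lost with the correction for length and GC content (log2 0.25, adjusted p = 0.0522, and -0.23, adjusted p = 0.0753).

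Mmp19 (ENSMUSG00000025355, chromosome 10), a secreted MMP that cuts basement membrane proteins, was low, at 1.56, 2.34, 1.19 and 1.64 CPM in WT-SH, 3.78, 2.68, 2.38 and 2.74 in WT-MI, 2.02, 2.28, 2.32 and 2.16 in KO-SH and 3.29, 3.37, 3.74 and 3.62 in KO-MI. In both genotypes every infarcted library was above every sham library. The log2 change was 0.67 ± 0.20 in knockout (adjusted p = 0.0268) and 0.77 ± 0.22 in wild type (adjusted p = 0.0682), and the interaction was -0.10 ± 0.29. The knockout call was lost without KO-SH replicate 1, 2 or 4 or KO-MI replicate 2 or 3 (log2 0.63 to 0.70, adjusted p up to 0.0726). Mmp19 overlaps Tmem198b on the opposite strand by up to 789 exonic bases in the GRCm38 annotation, and that gene had 9.67 to 16.7 CPM. The library kit is not stated to mark strand, so reads of the pair may be mixed.

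The other tested MMPs were Mmp15, Mmp16, Mmp17, Mmp25, Mmp11 and Mmp28, and none was called with all 16 libraries. Their log2 changes after infarction ranged from -0.81 (Mmp25) to 0.15 (Mmp16) in wild type and from -0.60 (Mmp17) to 0.01 (Mmp25) in knockout. Mmp25, an MMP of neutrophils, had 0.6 to 2.22 CPM over all libraries. Epilysin (Mmp28) was at 5.13 ± 0.593 CPM in WT-SH and 6.99 ± 0.895 in KO-SH (SD, n = 4; log2 0.44 ± 0.16, adjusted p = 0.0674), a difference called with the correction for length and GC content, in the groups compared alone and without the 3 libraries (0.44 to 0.50, adjusted p 0.027 to 0.0407).

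Among the ADAMTS proteoglycanases, Adamts1 (ENSMUSG00000022893, chromosome 16) showed the clearest pattern. Adamts1 cuts versican and aggrecan. It stood at 111, 85.1, 81.8 and 102 CPM in WT-SH, 59.6, 62.8, 93.3 and 89.5 in WT-MI, 40.9, 36.9, 46.9 and 43.8 in KO-SH and 60.2, 73.6, 82.8 and 52.2 in KO-MI. All KO-SH libraries were below all others, and the WT-MI and KO-MI libraries overlapped. Adamts1 was lower in KO-SH than in WT-SH by 1.17 ± 0.16 on the log2 scale (adjusted p = 0.000123), a fold of 2.25, and rose in knockouts after infarction by 0.67 ± 0.16 (adjusted p = 0.00836). In wild type the change was -0.32 ± 0.16 (adjusted p = 0.345). The difference between these responses was tested by the interaction, 0.99 ± 0.22 (adjusted p = 0.0216, edgeR). The interaction lost its call without KO-SH replicate 1, KO-SH replicate 2 or KO-MI replicate 2 (adjusted p up to 0.0537, with log2 values of 0.88 to 1.11 in the 16 such fits), and the other Adamts1 calls held without each library in turn.

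**Figure D5:**
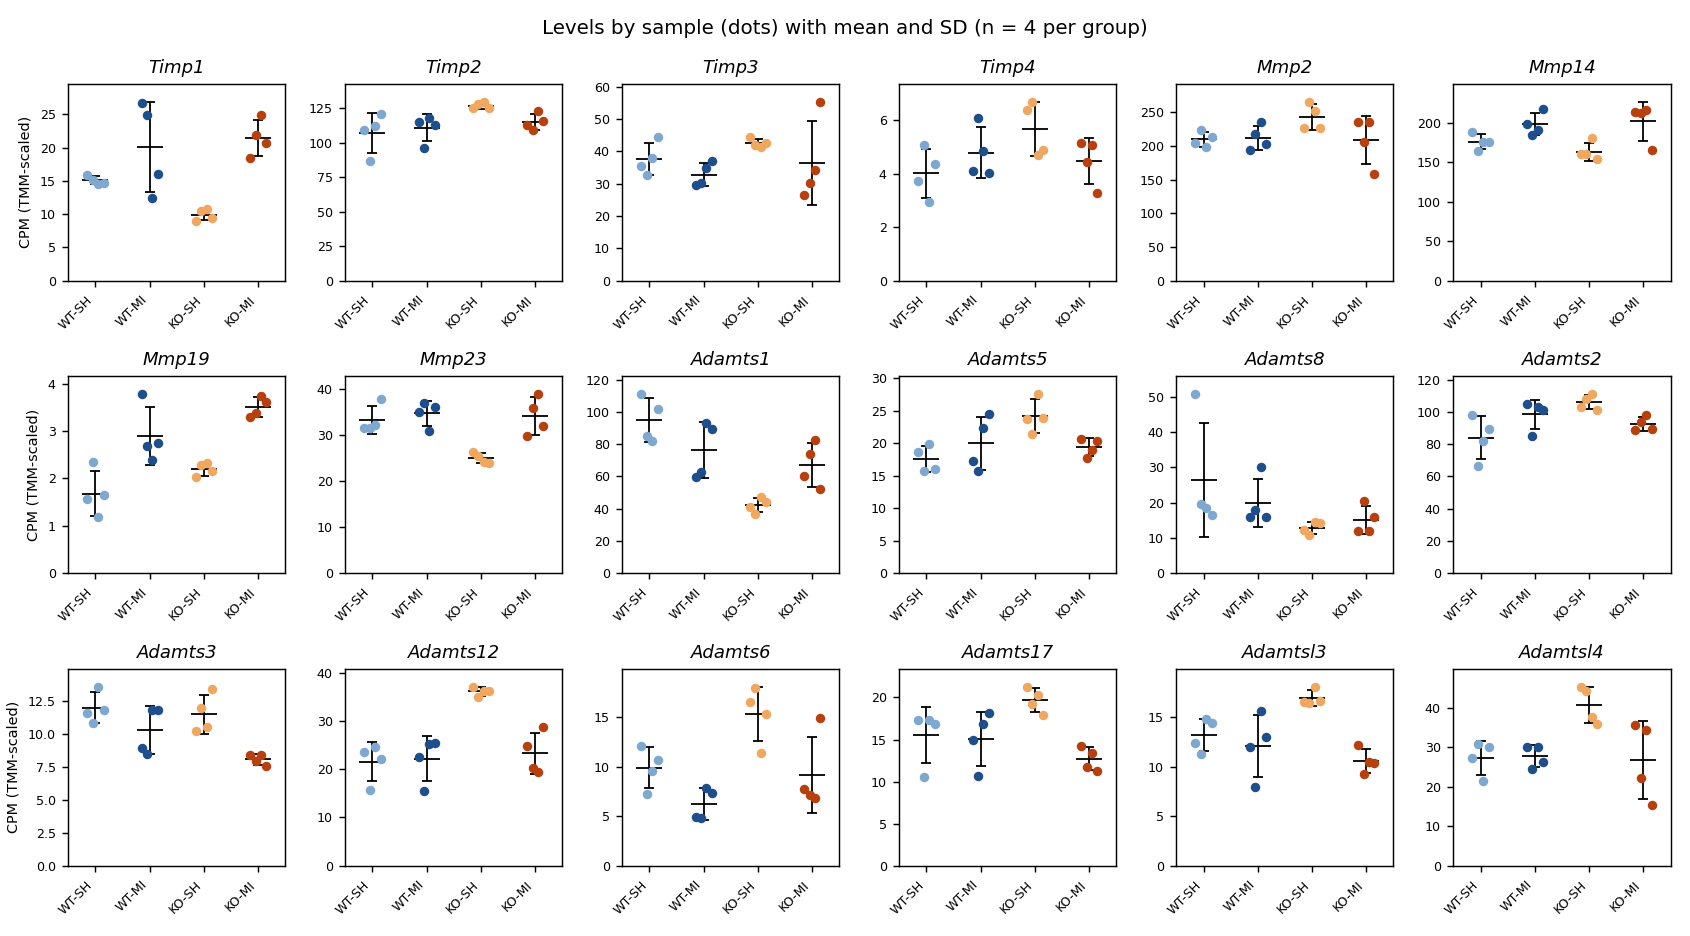
Levels in CPM (y axes from 0, TMM-scaled) of 18 members in the 4 groups; dots are samples, and horizontal lines with bars are the mean ± SD (n = 4). KO-SH libraries lie below all others for Timp1, Mmp23 and Adamts1 and above all others for Adamts12, Timp2, Adamtsl3 and Adamtsl4.

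Adamts5 (ENSMUSG00000022894), the next protein-coding gene beside Adamts1 on chromosome 16 and on the same strand, moved the other way between sham groups. It was at 18.6, 15.7, 19.9 and 16.1 CPM in WT-SH, 17.3, 15.8, 22.3 and 24.5 in WT-MI, 23.7, 21.5, 27.6 and 23.9 in KO-SH and 20.7, 17.7, 19 and 20.4 in KO-MI. Adamts5, the main aggrecanase of mouse cartilage, was higher in KO-SH by 0.46 ± 0.13 (log2 ± SE, adjusted p = 0.0214), with no overlap between sham groups. The call was lost without WT-SH replicate 2 or 4 or KO-SH replicate 3 (log2 0.39 at the lowest, adjusted p up to 0.0795) and with the correction for length and GC content (0.24, adjusted p = 0.0963).

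Adamts8 (ENSMUSG00000031994, chromosome 9), which has antiangiogenic activity, was at 50.8, 19.7, 18.4 and 16.6 CPM in WT-SH, 15.9, 17.8, 30 and 16 in WT-MI, 12.2, 10.9, 14.6 and 14.1 in KO-SH and 12, 20.5, 12 and 16 in KO-MI. WT-SH replicate 1 was far above its group, although all WT-SH libraries were above all KO-SH libraries. The difference of -1.03 ± 0.33 (log2, KO-SH minus WT-SH, adjusted p = 0.0481) was -0.50 without WT-SH replicate 1 (adjusted p = 0.122). The call was also lost without WT-SH replicate 2 (-1.16) and without any KO-SH library, with an adjusted p of 0.122 at most, and under 5 of 9 other alternatives, without the 3 libraries among them (adjusted p 0.0815 to 0.124).

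Adamts4, Adamts9, Adamts15 and Adamts20, further versican-cleaving enzymes, were not called with all 16 libraries. Adamts4 was at 10.9 ± 1.31 CPM in WT-SH, 14.2 ± 2.43 in WT-MI, 11.1 ± 0.726 in KO-SH and 14.3 ± 1.66 in KO-MI (SD, n = 4), with log2 changes of 0.38 ± 0.13 in wild type (adjusted p = 0.165) and 0.36 ± 0.13 in knockout (adjusted p = 0.0653). The knockout change of Adamts4 was called with upper quartile scaling, the correction for length and GC content, the groups compared alone, without KO-MI replicate 4 and without the 3 libraries (0.36 to 0.44, adjusted p 0.00272 to 0.042). Its change in wild type was called without WT-MI replicate 2 (0.49, adjusted p = 0.0489) and without the 3 libraries (0.43, adjusted p = 0.0368). Adamts15 had an interaction of -0.66 ± 0.21 (adjusted p = 0.10), called without WT-MI replicate 2 (-0.75, adjusted p = 0.041). In a fit of the groups compared alone, Adamts15 was lower in knockouts after infarction (-0.33, adjusted p = 0.0399) and higher in KO-SH than in WT-SH (0.39, adjusted p = 0.031), the latter also without WT-SH replicate 1 (0.51, adjusted p = 0.0344).

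Of the procollagen N-proteinases, which trim the amino-terminal propeptides of fibrillar collagens, Adamts2 (ENSMUSG00000036545, chromosome 11) was at 98.3, 66.4, 81.9 and 89.6 CPM in WT-SH, 105, 85.1, 103 and 101 in WT-MI, 103, 108, 111 and 101 in KO-SH and 88.7, 93.6, 97.8 and 89.1 in KO-MI. Adamts2 was higher in KO-SH than in WT-SH by 0.33 ± 0.10 (log2 ± SE, adjusted p = 0.0281), without overlap. The call was lost without WT-SH replicate 2 or 3 or KO-SH replicate 1, 2 or 3 (log2 0.23 to 0.42 over such fits, adjusted p up to 0.107). Adamts3 (ENSMUSG00000043635, chromosome 5), which also takes part in the activation of the lymphatic growth factor VEGF-C, was at 11.6, 10.8, 13.6 and 11.8 CPM in WT-SH, 8.96, 8.47, 11.8 and 11.8 in WT-MI, 10.2, 12, 10.5 and 13.4 in KO-SH and 8.42, 7.92, 8.39 and 7.58 in KO-MI. Adamts3 fell in knockouts by 0.51 ± 0.13 on the log2 scale (adjusted p = 0.0144), with no overlap, and the call was lost without KO-SH replicate 4 (-0.43, adjusted p = 0.0582). Adamts14 was at 8.57 to 13.1 CPM over all libraries and was not called.

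Adamts12 (ENSMUSG00000047497, chromosome 15), which like Adamts7 cleaves cartilage oligomeric matrix protein, was at 23.7, 15.8, 24.7 and 22.2 CPM in WT-SH, 22.6, 15.5, 25.2 and 25.5 in WT-MI, 37.2, 35, 36.2 and 36.3 in KO-SH and 24.8, 20.2, 19.5 and 28.8 in KO-MI. All KO-SH libraries were above all others. Adamts12 was higher in KO-SH than in WT-SH by 0.75 ± 0.15 (log2 ± SE, adjusted p = 0.00354) and fell in knockouts after infarction by 0.63 ± 0.15 (adjusted p = 0.00931), and both calls held without each library in turn. The interaction was -0.67 ± 0.22 (adjusted p = 0.11) and was called without WT-MI replicate 2, without KO-MI replicate 4, without the 3 libraries and with the replicate block (-0.81 to -0.68, adjusted p 0.000705 to 0.0471). Adamts7 was not called; its lowest library was KO-MI replicate 4 with 32.8 CPM, and the others had 57.1 to 78.6 CPM.

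Adamts6, Adamts10 and Adamts17 act in or near fibrillin microfibrils. Adamts17 (ENSMUSG00000058145, chromosome 7) was at 17.3, 10.5, 17.3 and 16.8 CPM in WT-SH, 14.9, 10.7, 16.8 and 18.1 in WT-MI, 21.3, 19.2, 20.3 and 17.9 in KO-SH and 14.2, 11.7, 13.4 and 11.3 in KO-MI. It fell in knockouts by 0.63 ± 0.16 on the log2 scale (adjusted p = 0.0109), without overlap, and held without each library in turn. Adamts6 (ENSMUSG00000046169, chromosome 13) was at 12.1, 7.24, 9.5 and 10.7 CPM in WT-SH, 4.93, 4.83, 7.87 and 7.29 in WT-MI, 16.5, 17.9, 11.4 and 15.3 in KO-SH and 7.74, 7.08, 6.82 and 14.9 in KO-MI. Only KO-MI replicate 4 overlapped KO-SH. Adamts6 fell in knockouts by 0.74 ± 0.23 on the log2 scale (adjusted p = 0.0332) and by 1.09 without that library, and the call was lost without KO-SH replicate 1, 2 or 4 or KO-MI replicate 1, 2 or 3 (adjusted p up to 0.111). In wild type the change was -0.68 ± 0.25 (adjusted p = 0.188), and the interaction was -0.07 ± 0.34. Adamts10, the most abundant ADAMTS transcript, was not called with all 16 libraries (78.4 to 126 CPM), nor were Adamts16 (0.156 to 1.3 CPM) and Adamts19 (18.2 to 34.2 CPM). Adamts10 was called higher in wild type after infarction without WT-MI replicate 2 (log2 0.40, adjusted p = 0.0246) and without the 3 libraries (0.39, adjusted p = 0.0106). Adamts19 was called lower there without WT-MI replicate 3 (-0.57, adjusted p = 0.0156), and lower in KO-SH than in WT-SH with the correction for length and GC content (-0.44, adjusted p = 0.0234) and in the groups compared alone (-0.35, adjusted p = 0.0165).

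Of the ADAMTS-like proteins, Adamtsl3 and Adamtsl4 fell in knockouts after infarction. Adamtsl3 (ENSMUSG00000070469, chromosome 7) was at 12.4, 11.3, 14.8 and 14.4 CPM in WT-SH, 12, 7.99, 15.6 and 13 in WT-MI, 16.5, 16.4, 18.1 and 16.6 in KO-SH and 12.2, 9.26, 10.5 and 10.4 in KO-MI. The change in knockouts was -0.67 ± 0.15 (log2 ± SE, adjusted p = 0.00603), without overlap, and it held without each library in turn. Adamtsl4 (ENSMUSG00000015850, chromosome 3), which binds fibrillin, was at 27.3, 30.8, 21.4 and 30.2 CPM in WT-SH, 30, 24.6, 30 and 26.4 in WT-MI, 45.2, 44.2, 37.7 and 35.9 in KO-SH and 35.7, 22.2, 34.5 and 15.3 in KO-MI. Its change of -0.60 ± 0.19 (adjusted p = 0.0413) was -0.41 without KO-MI replicate 4 (adjusted p = 0.0571). The call was also lost without any 1 of the KO-SH libraries or KO-MI replicate 2 (adjusted p up to 0.118), without the 3 libraries (0.0632), without a filter on low counts (0.0695) and in a fit of the groups compared alone (0.0929). Between sham groups, Adamtsl4 differed by 0.57 (log2, adjusted p = 0.0536) and was called by DESeq2, with a mean of at least 50 counts, with the correction for length and GC content, in the groups compared alone and without the 3 libraries (0.56 to 0.64, adjusted p 0.0016 to 0.0458). Adamtsl1, Adamtsl2 and Adamtsl5 were not called.

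Of 20 tested regulators of these enzymes, 4 rose and 4 fell in knockouts after infarction, beside 16.6% of all genes called, and 2 were higher and 3 lower in KO-SH than in WT-SH, beside 15.3%. None was called in wild type, beside 2.25% of all genes. The interaction was called for 4 of the 20, positive for 2 and negative for 2, beside 2.74% of all genes. Thrombospondin-1 (Thbs1), a matrix protein that binds MMPs, was at 60.6 ± 10.5 CPM in WT-SH, 53.4 ± 14 in WT-MI, 23.1 ± 3.66 in KO-SH and 44.9 ± 6.63 in KO-MI (SD, n = 4), with an interaction of 1.15 ± 0.24 (log2 ± SE, adjusted p = 0.0152). Pcsk6, a proprotein convertase, fell in knockouts by 0.78 ± 0.14 on the log2 scale (adjusted p = 0.00146, edgeR), as did the convertase Furin by 0.43 ± 0.09 (adjusted p = 0.0044). Both had their highest mean in KO-SH. Mean levels of Pcsk6 were 77.8 CPM in WT-SH, 77.5 in WT-MI, 125 in KO-SH and 72.5 in KO-MI. Those of Furin were 122, 109, 135 and 99.8 CPM in the same order. Reck, a membrane-anchored MMP inhibitor, fell in knockouts by 0.40 ± 0.12 (adjusted p = 0.0323, edgeR), with means of 17.5, 14.4, 21 and 15.9 CPM in that order.

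Among the substrates, 3 of 12 fibrillar and basement membrane genes fell in knockouts after infarction and none rose. Lama2, a laminin chain of muscle, was lower by 0.68 ± 0.11 (log2 ± SE, adjusted p = 0.000786, edgeR). Its mean was 292 CPM in WT-SH, 270 in WT-MI, 364 in KO-SH and 228 in KO-MI. Of 14 tested genes of large proteoglycans and their partners, 2 rose and 1 fell in knockouts after infarction. Beside these 2 lists, 16.6% of all genes were called there, 8.54% higher and 8.02% lower. Of 18 microfibril and elastic fibre genes, 1 rose and 2 fell in knockouts (16.6% of all genes called), while 1 was higher and 3 were lower in KO-SH than in WT-SH (15.3% of all genes), with Efemp1 (fibulin-3) lower by 2.14 ± 0.38 (adjusted p = 0.00117). In wild type after infarction, 2 of the 18 were called, beside 2.25% of all genes: Efemp1 fell (-1.57 ± 0.36, adjusted p = 0.0284) and Ltbp2, which binds fibrillin, rose (1.11 ± 0.26, adjusted p = 0.0328). Of 9 ADAM sheddases, which are membrane relatives of the ADAMTS proteases, Adam8 rose in both genotypes, from 1.49 ± 0.307 to 3.47 ± 0.79 CPM in wild type (adjusted p = 0.0259) and from 1.42 ± 0.433 to 6.13 ± 2.11 CPM in knockout (adjusted p = 9.06e-05).

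Of 17 tested AP-1 components and upstream regulators of MMP transcription, 1 was higher and 6 were lower in KO-SH than in WT-SH. The share of all genes called there was 15.3%. After infarction, 4 rose and none fell in knockouts, beside 16.6% of all genes, and 3 rose and none fell in wild type, beside 2.25%. Fos was at 11 ± 5.21 CPM in WT-SH, 13.3 ± 8.17 in WT-MI, 1.03 ± 0.403 in KO-SH and 6.27 ± 2.44 in KO-MI (SD, n = 4). Its log2 difference between sham groups was -3.42 ± 0.54 (adjusted p = 0.000909, edgeR) and its rise in knockouts 2.60 ± 0.56 (adjusted p = 0.00677). Il1b rose in wild type (2.70 ± 0.60, adjusted p = 0.0244, edgeR) and in knockout (2.04 ± 0.66, adjusted p = 0.0408). Its level was low, at 0.6 ± 0.136 CPM in WT-SH, 3.92 ± 4.42 in WT-MI, 0.428 ± 0.14 in KO-SH and 1.77 ± 0.616 in KO-MI. The WT-MI libraries spread from 1.19 to 10.5 CPM.

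Markers of other cell types moved between the same groups. Of all genes tested, 15.3% were called between sham groups. After infarction, 16.6% were called in knockouts and 2.25% in wild type. All 8 epicardial and mesothelial markers were lower in KO-SH than in WT-SH and higher in KO-MI than in KO-SH, and 1 fell in wild type after infarction. Their summed level was 95.7 to 147 CPM in WT-SH, 60.9 to 77.7 in WT-MI, 27.7 to 35.3 in KO-SH and 47.9 to 129 in KO-MI. Of 8 smooth muscle and pericyte markers, 5 were higher and 2 lower in KO-SH than in WT-SH, and 2 rose and 3 fell in knockouts after infarction. They summed to 701 to 869, 652 to 922, 1090 to 1130 and 760 to 937 CPM in the same order. The 8 macrophage markers summed to 110 to 124, 156 to 244, 147 to 159 and 193 to 413 CPM. Of these, 2 were higher in KO-SH than in WT-SH, and 2 were called higher in wild type and 5 in knockout after infarction. The 8 atrial markers summed to 769 to 3530, 1400 to 2240, 328 to 675 and 714 to 2850 CPM. Nppa was the largest part of these sums, with means of 1120, 1240, 223 and 1260 CPM of mean sums of 2070, 1810, 450 and 1700. Of the 8 atrial markers, 6 were lower in KO-SH than in WT-SH, and 1 rose in knockouts after infarction. The 8 fibroblast markers summed to 2070 to 2380, 2430 to 2560, 2090 to 2300 and 1650 to 2510 CPM. Of these, 1 was higher and 2 were lower in KO-SH than in WT-SH, and 1 rose and 1 fell in knockouts after infarction. The 9 activated fibroblast markers summed to 1830 to 2120, 1710 to 1970, 1470 to 1760 and 1640 to 1990 CPM. Acta2 is a large part of these sums, with means of 967, 752, 681 and 621 CPM of mean sums of 2000, 1820, 1620 and 1730. Of the 9, 1 was higher and 3 were lower in KO-SH than in WT-SH. After infarction, 2 were higher in wild type and 4 in knockout. The 8 skeletal muscle markers summed to 139 to 224, 195 to 379, 52.3 to 82.9 and 139 to 176 CPM. These sums are nearly all Acta1, with means of 162, 303, 59.6 and 150 CPM of mean sums of 177, 315, 65.7 and 162. They therefore describe Acta1 and not the list. Of the 6 tested, 3 were lower in KO-SH than in WT-SH. After infarction, 1 was higher and 1 lower in wild type, and 2 were higher in knockout. The 7 erythroid markers, all lower in KO-SH than in WT-SH, summed to 2960 to 4730, 1710 to 2110, 990 to 1410 and 1120 to 1860 CPM. After infarction, 5 of them fell in wild type and 3 rose in knockouts. The 8 neutrophil markers, 5 of which rose in knockouts, summed to 7.69 to 11.2, 11.7 to 98.5, 5.6 to 9.94 and 24.6 to 104 CPM. The 8 endothelial markers summed to 1460 to 1630, 1520 to 1670, 1720 to 1820 and 1350 to 1790 CPM. Of these, 2 were higher in KO-SH than in WT-SH, and none was called after infarction in either genotype. No marker of these lists was at 0 in all libraries. The part of these cells in the changes of Timp1, Adamts1, Mmp23, Adamts12 and the other members was not tested. In whole ventricles, fewer cells of a type and less RNA per cell cannot be told apart.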

How the data were processed

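Ventricular polyA RNA of 16 samples was sequenced, and the authors deposited whole-number HTSeq counts per Ensembl gene, not normalized. Per the submitters' processing notes reads were handled with HISAT2 2.2.1 and HTSeq 0.13.5 (also listed are bcl2fastq 2.17, FastQC, cutadapt 3.4 and DESeq2), and the build was GRCm39; strand setting and annotation release are not given in the sources used here. Counts of members that overlap another gene on the opposite strand may therefore include its reads. Between 23.74 and 28.25% of the counted reads per library fell in no annotated feature and stayed out of library sizes and tests. Symbols were available for 22362 of 22468 genes.

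Groups were taken from the labels. Tests used R 4.3.3 and edgeR 4.0.16: TMM scaling, filterByExpr, a robust quasi-likelihood model with 4 group means over the 16 libraries (12 residual degrees of freedom), two-sided contrasts and Benjamini-Hochberg adjustment over 13412 genes, called at an adjusted p under 0.05. The fit was tested on simulated data. Levels per kb divide CPM by the longest GENCODE transcript (GRCm38, older than the authors' build, so it gave lengths, GC content, overlaps and gene order only). Promoters are RefSeq's, GRCm38.p6.

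The members and gene lists were chosen with earlier results of these data known, and lists are described by counts without a set test. Given in full were the members called in any comparison, the 4 Timp genes, Mmp2 and Mmp14; for the other lists, genes with the smallest p. Alternatives were DESeq2 1.42.0, RLE and upper quartile scaling, no filter or a mean of at least 50 counts, a replicate block, correction for length and GC content, only the groups compared, and leaving out each library; leaving out 3 libraries together was chosen after seeing the data.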

Additional observations from a re-analysis of the deposited data

Results flagged for a closer look

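In groups of 4 samples, 1 sample lay far from the others for 7 of 72 groups tested among the members given in full, where chance gives about 1 in 20. Adamts17 was at 10.5 CPM in WT-SH replicate 2, against 16.8 to 17.3 in its group. Adamts6 was at 14.9 CPM in KO-MI replicate 4, against 6.82 to 7.74. Mmp14 was at 165 CPM in that same library, against 212 to 216. Adamts8 was at 50.8 CPM in WT-SH replicate 1, against 16.6 to 19.7, and at 30 CPM in WT-MI replicate 3, against 15.9 to 17.8. Adamtsl3 was at 18.1 CPM in KO-SH replicate 3, against 16.4 to 16.6, and Mmp23 at 37.8 CPM in WT-SH replicate 4, against 31.5 to 32.2. Of these 7 samples, 3 come from WT-SH replicate 2 or KO-MI replicate 4, which were also apart on the fourth component.

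The response to infarction differed between genotypes for Adamts1, with a log2 interaction of 0.99 ± 0.22 (SE, adjusted p = 0.0216, edgeR): the level was lower in infarcted than in sham wild types on average, and higher in knockouts.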

How the results depend on the processing

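No fold change of a called member turned its sign under the alternatives run. The count of members called after infarction in wild type was 0 to 2 when each library was left out in turn (2 without WT-MI replicate 2 and without WT-MI replicate 3, 1 without WT-SH replicate 2) and 4 without the 3 libraries apart on the fourth component. In knockouts it was 11 and ran from 6 to 12 over the libraries left out. Between sham groups it was 7, ran from 3 (without WT-SH replicate 2) to 7 over the libraries left out, and was 14 when only the groups compared were fitted (24.7% of all genes). After infarction it was 0 between genotypes in every alternative. The interaction count of 1 became 2 with the replicate block (Adamts12 added) and 8 without the 3 libraries, and ran from 0 to 8 over the libraries left out, with 8 without WT-MI replicate 2, of which 7 were lower; the cause was not tested. Deviations of the 24 same-number pairs correlated at -0.097 to 0.475, with a median of 0.011. Those of the 72 other pairs correlated at -0.326 to 0.21, with a median of -0.006. The highest value, 0.475, was that of WT-SH replicate 2 with WT-MI replicate 2. A median near that of the other pairs cannot show whether samples of a single number belong together, and this was not tested. Under the block, Adamts8 lost its sham call (log2 -0.99, adjusted p = 0.0986), and Adamts6 and Timp2 gained one. DESeq2 called 11 members in knockouts and 9 between sham groups. The 12 untested members had at most 10 reads per library, which sets what this depth can show.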
